A study of Caenorhabditis elegans with 4 samples.

Results

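The genomic regions described here are the GEI-11 peaks of Caenorhabditis elegans chromosome IV that lie left of its right piRNA domain. They were chosen by position alone: every peak of the combined peak list on chromosome IV with a midpoint below 13500 kb on WormBase WS220. With limits set after earlier results of these data were known, that gave 317 regions of 2811 in the list. They fall into a left flank from the chromosome's left end to 4.5 Mb with 68 peaks, the left piRNA domain from 4.5 to 7.0 Mb with 130, and a right flank from 7.0 Mb to the limit at 13500 kb with 119. In the separately called lists the same stretch held 51 of 301 peaks in ChIP replicate 1 and 255 of 2140 in ChIP replicate 2.

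The worms were young adult hermaphrodites of strain OP179. Their genotype combined the mutation unc-119(ed3) on chromosome III with the transgene wgIs179, which restores unc-119(+) and carries gei-11 fused to the tags TY1, EGFP and 3xFLAG. The transgene was introduced by bombardment, and the submitters state that the fusion is expressed in the normal gei-11 pattern. The animals were grown at 20 °C on Escherichia coli HB101. The labels list no mutation of the worms' own gei-11, and the chromatin came from whole animals, so germline and body tissues were mixed. GFP-tagged GEI-11 was immunoprecipitated from 2 ChIP samples with anti-GFP antibodies, and 2 input samples of total chromatin were kept. Nothing in the labels says that the replicates were separate cultures, so the spread between them may be technical. Input values and read counts were not analysed here, and the sequencing depth behind each list is unknown.

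GEI-11 is also called SNPC-4. It is the worm counterpart of the DNA-binding subunit of the small nuclear RNA activating protein complex, which recruits RNA polymerase to small nuclear RNA genes by way of a proximal sequence element. In the worm germline it is also needed for transcription of piRNA genes. These genes are short, carry their own upstream elements, and give small RNAs that the Argonaute PRG-1 uses to silence foreign and repeated sequences. Most lie on chromosome IV, in a left and a right domain. RefSeq's gene table for the later assembly WBcel235 places 14714 of its 15363 piRNA genes on this chromosome. Its coordinates were not joined with the WS220 peaks, so each peak is identified by its position alone and no gene is assigned to it.

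Peaks were packed more densely in the left domain than on either side of it, and this held in all 3 lists. The combined list was made from the same ChIP samples as the replicate lists, so it is no separate replication. The combined list had 52.0 peaks per Mb in the domain, 15.1 in the left flank and 18.3 in the right flank. The domain was 3.06 times (95% interval 2.43 to 3.85) as dense as the flanks together, by an exact conditional binomial test of the counts (adjusted p = 9.6e-20 over 6 comparisons). Neighbouring peaks are not independent, so this and the other tests over peaks cover counting error only and describe these lists. The domain bounds were chosen with earlier results of these data known. Replicate 1 had 10.4 peaks per Mb in the domain against 1.78 in the left flank and 2.62 in the right flank. Replicate 2 had 46.8 against 11.6 and 13.2. The ratio to both flanks was 4.58 (2.54 to 8.26) in replicate 1 and 3.73 (2.89 to 4.81) in replicate 2. It was thus above 1 in each list, with overlapping intervals. The domain made up 41.0% of the 317 combined peaks, 51.0% of those of replicate 1 and 45.9% of those of replicate 2. Peaks covered 1.80% of the domain's length and 0.658% of the flanks'.

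The flanks did not differ from each other by the same test. The left flank was 0.825 times (0.603 to 1.12) as dense as the right in the combined list (exact binomial p = 0.23). Against the left flank alone the domain ratio was 3.44 (2.55 to 4.68), and against the right flank alone it was 2.84 (2.20 to 3.67).

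Counted in bins of 0.5 Mb, the combined list stepped up at the left edge of the domain and down at the right edge. The last bin of the left flank, 4.0 to 4.5 Mb, held 10 combined peaks and the first domain bin 17. The following domain bins held 35, 27, 25 and 26. The first bin past the domain, 7.0 to 7.5 Mb, held 15 and the next 12. None of the 22 flank bins reached the lowest domain bin in the combined list. The 9 bins of the left flank held 5 to 12 peaks and the 13 of the right flank 4 to 15. In replicate 1 the domain bins held 5, 10, 4, 4 and 3 peaks from left to right, and 11 of 22 flank bins were empty. The domain and flank bins of replicate 1 overlapped, since 4 flank bins also held 4. In replicate 2 the domain bins held 16, 27, 27, 22 and 25, against at most 13 in a flank bin. In windows of 100 kb the domain had no empty window, with 2 to 13 peaks in its 25 windows and a median of 5. In the flanks 21 of 110 windows were empty, and the others held up to 6.

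**Figure D1:**
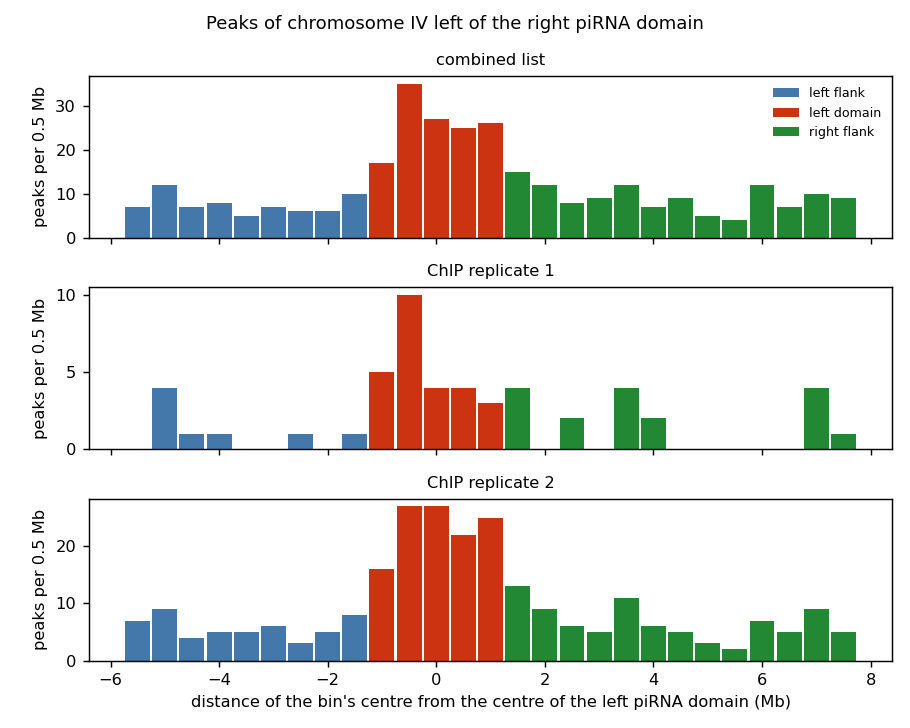
Peaks per 0.5 Mb bin in the combined list and in each ChIP replicate, plotted by distance from the centre of the left piRNA domain in Mb. The 5 domain bins hold 17 to 35 combined peaks, above all 22 flank bins. Those of replicate 2 hold 16 to 27, also above every flank bin, while those of replicate 1 hold 3 to 10 and overlap with flank bins of up to 4.

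Left domain peaks were stronger on the median than flank peaks in the combined list, though the strongest single peaks lay in the flanks. Strength is given as −log10 of the q-value that the authors' peak caller assigned. It is not a fold enrichment, and it depends on sequencing depth. The median was 4.56 (95% order-statistic interval 3.66 to 5.78) in the domain, 3.03 (2.78 to 3.64) in the left flank and 3.02 (2.74 to 3.43) in the right flank. Above the joint median of 3.38 lay 81 of 130 domain peaks, or 62.3%, and 77 of 187 flank peaks, or 41.2% (Fisher's exact test, two-sided, adjusted p = 0.00051). The difference of medians was 1.54. The upper quartile was 9.70 in the domain against 4.66 and 5.23 in the flanks.

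The strength difference passed the test in neither replicate list by itself. In replicate 2 the medians were 3.73 in the domain and 2.96 in the flanks, a difference of 0.769 that did not pass the test (Fisher's exact adjusted p = 0.080 over 4 comparisons). In replicate 1 the medians were 3.48 and 4.42, with the domain lower (Fisher's exact adjusted p = 0.54). Replicate 1 is a short list that lacks most of the weaker combined peaks, and its medians are over 26 domain and 25 flank peaks. Among the 26 domain and 24 flank peaks found in both replicates, the medians were 3.48 and 4.55 in replicate 1. In replicate 2 the same peaks had 15.6 and 12.7. The cause of the lower domain median in replicate 1 was not tested.

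In the combined list the excess of the domain was seen in every class of strength and was larger among the stronger peaks. The classes were set after the data had been seen. Below a −log10 q of 3 the domain held 39 peaks, or 15.6 per Mb, against 8.36 per Mb in the flanks, a ratio of 1.87 (1.25 to 2.74). From 3 to 5 the ratio was 2.81 (1.72 to 4.53). From 5 to 10 it was 5.10 (2.89 to 9.09), with 29 domain and 25 flank peaks. From 10 to 20 it was 6.43 (3.01 to 14.2), with 19 domain peaks and 13 in the longer flanks. From 20 upwards it was 5.72 (2.32 to 14.6), with 13 and 10. All 5 ratios passed (exact binomial adjusted p = 0.0022 at most). The interval of the weakest class lies below that of the class from 5 to 10, while the 3 upper classes have overlapping intervals. Whether this trend holds in either replicate list was not tested. In replicate 1 the upper quartile of −log10 q was lower in the domain, at 7.06 against 10.96 in both flanks together. In replicate 2 it was higher in the domain, at 8.41 against 5.36.

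**Figure D2:**
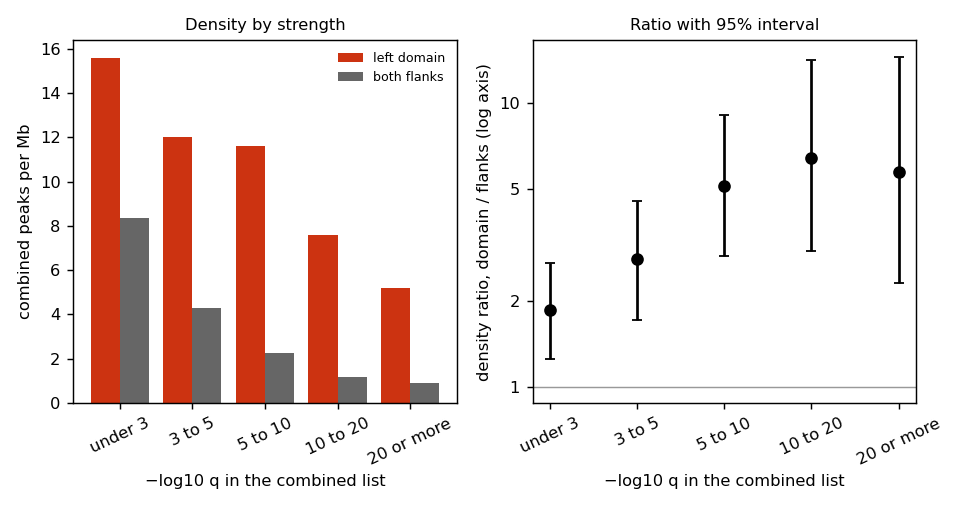
Left, combined peaks per Mb in the left domain and in both flanks by class of −log10 q; right, the ratio of the densities with its 95% interval on a log axis. The ratio is 1.87 in the weakest class and between 5.10 and 6.43 in the 3 strongest classes.

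By rank in the combined list, 8 of 130 domain peaks were among the 100 strongest of the genome's 2811. Beside them were 4 of 68 peaks of the left flank, a similar share, and 4 of 119 of the right flank. Ranks 101 to 300 held 22 domain peaks, 3 of the left flank and 12 of the right flank. The strongest domain peak had rank 36, and 41 domain peaks had ranks 301 to 1000.

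The strongest domain peak spanned 6117574 to 6118201, 628 bp, and its −log10 q was 73.7 in the combined, 21.0 in the replicate 1 and 53.2 in the replicate 2 list. Next came 4880378 to 4881142, with 71.4, 16.3 and 56.8 in the same order. The peak ranked after it spanned 5264677 to 5265264, with 50.1, 9.12 and 43.1. Replicate 2 was the higher in each, and the first 2 peaks changed places between the replicates. The next 5 spanned 5063256 to 5063754, 5317095 to 5317576, 6664269 to 6664772, 5966904 to 5967441 and 4930691 to 4931116. Their combined values ran from 47.6 down to 36.6, their replicate 1 values from 6.47 to 10.6 and their replicate 2 values from 28.7 to 39.1. All 8 were in both replicate lists, were 426 to 765 bp wide, and lay between 4880378 and 6664772.

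In the right flank the strongest peak spanned 9511092 to 9512247, 1156 bp, with 117.7 in the combined, 27.2 in the replicate 1 and 93.5 in the replicate 2 list. A peak at 9444254 to 9445039 had 112.8, 27.4 and 95.5. These were ranks 15 and 17 of the combined list. Another, at 8428374 to 8429329, had 73.6, 18.9 and 59.3. They stood well apart from the rest of the flank, whose next peaks, at 7316475 to 7316996 and at 13430134 to 13430526, had combined values of 36.9 and 24.4.

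The left flank had its strong peaks near the left end of the chromosome. The strongest spanned 866787 to 867449, with 89.0 in the combined, 23.8 in the replicate 1 and 71.5 in the replicate 2 list. Peaks at 657843 to 658383 and 991007 to 991547 had combined values of 54.3 and 41.5. The other 2 of the first 5 were at 4347417 to 4348092, just outside the domain, with 40.5, and at 1763235 to 1763930, with 20.8. All 10 named flank peaks were in both replicate lists.

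Median widths of the domain and the flanks were not told apart by the test. Of the very narrow peaks left of the right piRNA domain, nearly all were in the left domain. The median width was 321.5 bp (299 to 356) in the domain, 300.5 bp (282 to 339) in the left flank and 322 bp (293 to 352) in the right flank. The domain exceeded both flanks together by 3.5 bp (Fisher's exact adjusted p = 0.57). In replicate 2 the medians were 312 bp in both, and in replicate 1 they were 309.5 bp and 369 bp (Fisher's exact adjusted p = 0.10 over 4 comparisons). The widest domain peak, 5666562 to 5667484, was 923 bp and was in replicate 2 but not in replicate 1. The widest of all was in the right flank, 8431459 to 8433147, at 1689 bp. It was 1670 bp in replicate 2 and only 238 bp in replicate 1. The widest of the left flank, 3050243 to 3050963, was 721 bp and in replicate 2 alone.

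Widths below 200 bp, a limit chosen after the widths had been seen, were found in 18 of 130 domain peaks, or 13.8% (8.42 to 21.0). In the flanks there were 2 of 187, or 1.07% (0.130 to 3.81; Fisher's exact p = 4.0e-06). Over all peaks of the genome the share was 19.7% in the combined list, 553 of 2811, and 20.2% in replicate 2. The left domain's share was thus below that of the whole list, and the right domain held 458 of the 553. The left flank had none, and its narrowest peak, 143881 to 144085, was 205 bp. The 2 in the right flank spanned 13013847 to 13014005 and 13353364 to 13353473, within 0.5 Mb of the right domain's start. Of the domain's 18, 12 lay in the single bin from 5.0 to 5.5 Mb, 2 in the next and 4 in the one after, with none in the outer bins. Without the bin from 5.0 to 5.5 Mb the excess over the flanks fell from 12.8 to 5.25 percentage points (Fisher's exact p = 0.019). In replicate 2 the counts were 20 of 117 domain peaks, or 17.1%, and 2 of 138 flank peaks (Fisher's exact p = 6.2e-06). There they were less concentrated, with 7 from 5.0 to 5.5 Mb, 8 from 5.5 to 6.0 Mb, 4 from 6.0 to 6.5 Mb and 1 beyond. Replicate 1 had no peak below 200 bp in the domain or in the flanks, and only 16 of 301, or 5.32%, over its whole list.

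The narrow domain peaks were all weak, with a median −log10 q of 2.35 and a highest value of 3.94. A replicate 2 peak overlapped 9 of the 18, and a replicate 1 peak none. The narrowest spanned 5486273 to 5486275, only 3 bp, with a combined value of 2.35, and another, 5496138 to 5496147, was 10 bp wide with 2.13. Both were in neither replicate list. Width and strength went together in the whole stretch, with a Spearman rho of 0.748 over the 130 domain peaks and 0.606 over the 187 flank peaks, both values coming from the same reads.

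Within the weakest and the middle tercile of strength, domain peaks were the narrower ones, a comparison outside the planned ones. For it the 317 peaks were divided by combined strength into terciles. In the weakest, up to a −log10 q of 2.74, the median width was 200 bp in 33 domain peaks and 270 bp in 73 flank peaks (Fisher's exact adjusted p = 0.0090 over 3 terciles). In the middle one it was 262 and 301.5 bp (Fisher's exact adjusted p = 0.036). In the strongest, from 5.16, it was 409 and 480 bp, which did not pass (Fisher's exact adjusted p = 0.33). Peaks below 200 bp made up 16 of 33 domain peaks in the weakest tercile, against 1 of 73 flank peaks (Fisher's exact adjusted p = 1.3e-08), and 2 of 37 against 1 of 68 in the middle one (Fisher's exact adjusted p = 0.42).

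**Figure D3:**
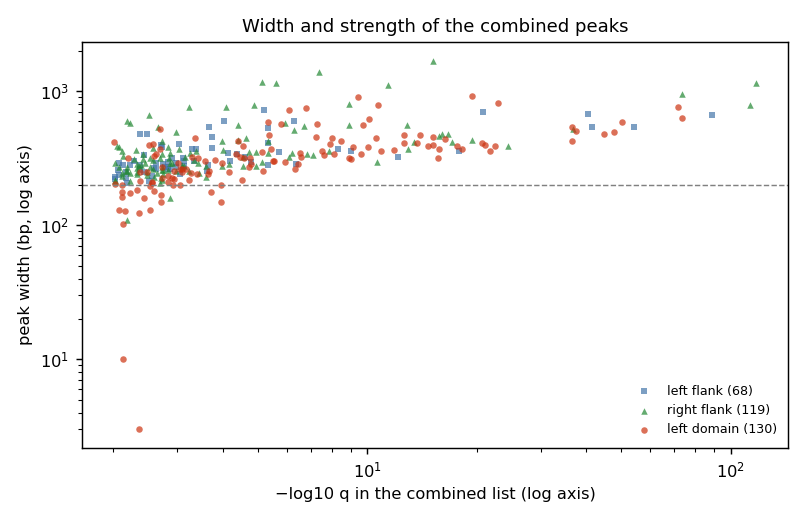
Width in bp against −log10 q for the 317 combined peaks, both on log axes, with a dashed line at 200 bp. The points below the line are weak and, but for 2 of the right flank, belong to the left domain.

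Neighbouring peaks were closer in the domain, as its density implies. The median distance between the midpoints of neighbours was 11.2 kb (8.83 to 17.6) in the domain, 48.2 kb (31.8 to 58.0) in the left flank and 38.2 kb (31.1 to 48.4) in the right flank. The domain median was 0.268 times that of the flanks (Fisher's exact adjusted p = 8.5e-12). It was 14.0 kb against 47.3 kb in replicate 2. In replicate 1 it was 59.9 kb against 124 kb, with 25 and 23 gaps, and did not pass the test (Fisher's exact adjusted p = 1.0). The longest gap was 112 kb in the domain, from the peak at 4538749 to 4539141 to the one at 4650550 to 4650996. It was 298 kb in the left flank and 295 kb in the right flank.

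Relative to its own mean, the spacing in the domain was about as uneven as in the flanks in the combined list and in replicate 2, but not in replicate 1. The standard deviation of the gaps over their mean was 1.09 in the domain, 0.879 in the left flank and 1.04 in the right flank. A value of 1 is that of points placed independently. In replicate 2 the values were 1.07, 0.938 and 1.13. In replicate 1 they were 0.905, 1.04 and 2.14, over 25, 7 and 16 gaps, so the right flank was the most uneven there. These are descriptions without a test.

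Small groups of neighbours were frequent in the domain, where a fixed distance limit also catches more gaps because peaks are denser. Whether they exceeded what the density of each stretch implies was not tested. Over the whole region 61 of 314 gaps, or 19.4%, were below 5 kb. Such gaps numbered 41 of 129 in the domain, 2 of 67 in the left flank and 18 of 118 in the right flank. Taken as runs, a limit chosen after the data had been seen, they joined 65 of 130 domain peaks into 24 runs, 11 of them with 3 or more peaks. The left flank had 2 runs, both pairs, and the right flank 15, with 3 of 3 peaks. The longest domain runs had 5 peaks. One spanned 5388814 to 5395185, 6.37 kb, and included 3 peaks below 200 bp and 4 that were in replicate 2. Its strongest peak, 5394714 to 5395185, had a combined −log10 q of 12.6. The other spanned 5533124 to 5549218, with all 5 in replicate 2 and 1 in replicate 1. In the right flank the run from 9440585 to 9445039 ended in the second strongest peak of that flank, and the run from 12781759 to 12787283 had all 3 peaks in both replicates.

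The closest pair in the domain, 5089620 to 5090010 and 5090309 to 5090580, had midpoints 629.5 bp apart, with combined values of 4.54 and 2.72. In the right flank it was 11821892 to 11822161 and 11822447 to 11822989, 691.5 bp apart, with values of 2.52 and 2.65. The second peak of each pair was in neither replicate list. In the left flank it was 654746 to 655101 and 657843 to 658383, 3189.5 bp apart, with 17.9 and 54.3, both in both replicates.

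**Figure D4:**
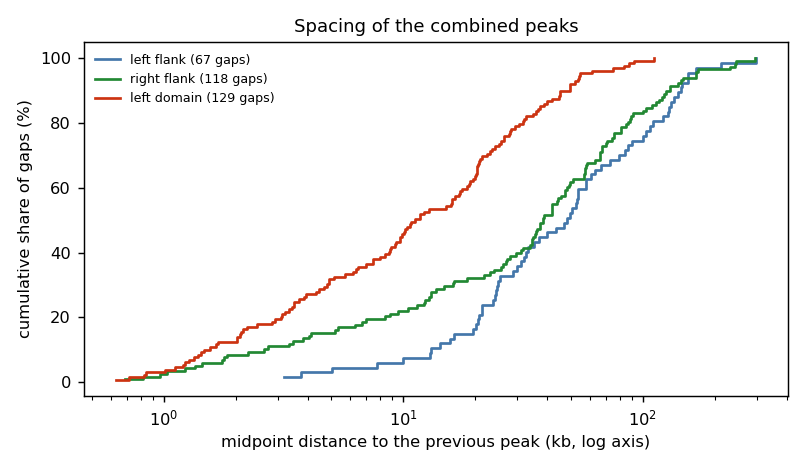
Cumulative share of the distances between the midpoints of neighbouring combined peaks in each stretch, in kb on a log axis. The domain curve lies left of both flanks, with a median of 11.2 kb against 38.2 and 48.2 kb, and the left flank has no gap below 3 kb.

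Domain peaks were found again in replicate 2 more often than flank peaks. A replicate 2 peak overlapped 111 of the 130 domain peaks by at least 1 bp, or 85.4% (exact 95% interval 78.1 to 91.0), and 134 of 187 flank peaks, or 71.7% (64.6 to 78.0; Fisher's exact adjusted p = 0.0063). Over all combined peaks the share was 72.6%, so the flanks were near the background. The share was 76.5% in the left flank and 68.9% in the right flank. The combined list was made from the same ChIP samples, so these shares are no independent test of agreement. Against the left flank alone the difference of 8.91 points did not pass the test (Fisher's exact adjusted p = 0.18), and neither did it with the domain narrowed by 0.25 Mb at each end (9.45 points, Fisher's exact adjusted p = 0.10).

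In replicate 1, 26 domain peaks were found, or 20.0% with an upper 95% bound of 27.9%, and 25 flank peaks, or 13.4% (8.84 to 19.1). The difference of 6.63 points did not pass the test (Fisher's exact adjusted p = 0.15). The background over all combined peaks was 10.5%. Neither replicate list held 19 domain peaks, or 14.6%, and 52 flank peaks, or 27.8%, beside 27.2% of all combined peaks. The strongest combined peak of the stretch that was in neither was in the domain at 5350390 to 5350565, with a −log10 q of 3.72. A single peak was in replicate 1 alone, in the left flank at 3160816 to 3161193, with 3.74 in the combined list and 2.43 in replicate 1; it was named after its values were seen.

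Recovery went with strength, and within terciles of combined strength the domain and the flanks were not told apart. In the strongest tercile every peak was in replicate 2, 60 of the domain and 46 of the flanks, so no difference could show there. In the middle tercile 34 of 37 domain peaks and 63 of 68 flank peaks were, which left little room for one. In the weakest, 17 of 33 domain peaks (51.5%, 33.5 to 69.2) and 25 of 73 flank peaks (34.2%, 23.5 to 46.3) were, and this gap did not pass (Fisher's exact p = 0.13). Over the terciles jointly the difference was 5.15 points, with a Mantel-Haenszel odds ratio of 1.67 (exact conditional test, adjusted p = 0.29). This joint value includes the terciles with little or no room to differ. Whether strength accounts for the difference in recovery was not tested. For replicate 1 all but 1 of the recovered peaks were in the strongest tercile, 26 of 60 in the domain and 24 of 46 in the flanks. The domain was lower than the flanks over the terciles jointly, with an odds ratio of 0.670, and this did not pass the test either (exact conditional test, adjusted p = 0.41). The domain made up 56.6% of the strongest tercile and 31.1% of the weakest.

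The 50 peaks found in both replicates had a higher −log10 q in replicate 2 without exception. In the domain the medians of the 26 were 3.48 in replicate 1 and 15.6 in replicate 2. In the flanks the medians of the 24 were 4.55 and 12.7. The ratio of the replicate values had a median of 3.79 in the domain and 3.23 in the flanks. The same regions were called wider in replicate 2, with medians of 388 against 309.5 bp in the domain and 483.5 against 364.5 bp in the flanks.

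The reverse comparison found few losses. All 51 replicate 1 peaks of the stretch overlapped a combined peak. Of the 255 in replicate 2, 10 did not, 6 in the domain and 4 in the right flank. All 10 were weak, with −log10 q of 2.01 to 2.42. The strongest spanned 5444885 to 5444957, 73 bp wide. No peak of replicate 1 was missing from the combined list.

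**Figure D5:**
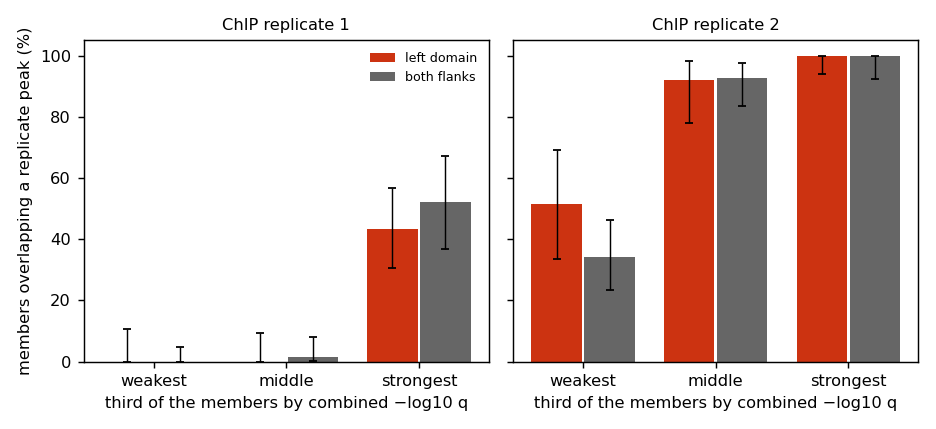
Share of combined peaks that overlap a peak of each ChIP replicate, by tercile of combined −log10 q, in the left domain and in both flanks, with exact 95% intervals. All peaks of the strongest tercile are in replicate 2, and the intervals of domain and flanks overlap in every tercile.

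Set beside the right piRNA domain, from 13500 kb to 17.0 Mb, the left domain was sparser and its peaks were wider. The right domain had 735 combined peaks, or 210.0 per Mb, so the left was 0.248 times (0.204 to 0.299) as dense (exact binomial p = 2.3e-64). Peaks below 200 bp made up 62.3% of the right domain, against 13.8% of the left (Fisher's exact adjusted p = 3.3e-25 over 5 comparisons). Median widths were 157 bp and 321.5 bp (Fisher's exact adjusted p = 2.4e-21). Left domain peaks were found again more often in replicate 2 (85.4% against 73.9%, Fisher's exact adjusted p = 0.0066) and in replicate 1 (20.0% against 12.7%, Fisher's exact adjusted p = 0.046). Over all combined peaks the shares were 72.6% and 10.5%. Recovery in the left and right domains was not compared at matched strength or width. The difference in median strength, 4.56 in the left domain against 3.65 in the right, did not pass the test (Fisher's exact adjusted p = 0.058).

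The flanks were sparser than 4 of the other 5 chromosomes, with each length measured to where the lists' rightmost peak ends. With 17.0 peaks per Mb they had 0.816 times (0.698 to 0.949) the density of the other 5 chromosomes together, which had 20.8 per Mb (exact binomial p = 0.0076). They were below chromosomes II, III, V and X, with ratios of 0.667 to 0.827 (exact binomial adjusted p = 0.031 at most), and above chromosome I, at 1.82 (1.45 to 2.28; exact binomial adjusted p = 4.4e-07). The left domain was 2.50 times (2.07 to 2.98) as dense as the other chromosomes. Narrow peaks were 4.01% of the peaks on other chromosomes, between the flanks and the left domain.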

How the data were processed

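Peak lists from chromatin immunoprecipitation and sequencing (ChIP-seq) were analysed: 1 per ChIP replicate and 1 combined. Per the file headers, coordinates follow WormBase WS220 and PeakSeq called the peaks, and the deposited score is a q-value per peak, below 0.01. Not given in the sources used here are the version of PeakSeq, the aligner, the filters and any pooling of replicates. No read depth is known.

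From these lists strength was computed as −log10 q, width as end − start + 1, and gaps between midpoints of neighbours within a stretch. Densities were compared by exact conditional binomial tests, shares and medians (counts above the joint median) by Fisher's exact tests, all two-sided. Intervals are 95% Clopper-Pearson or, for medians, order-statistic, and cover counting error only. P-values were Benjamini-Hochberg adjusted over the 6 planned comparisons (4 in a replicate list), the test for peaks below 200 bp apart. The domain bounds, members and comparisons were chosen with earlier results of these data known. Named are the 8 strongest domain peaks, the 5 strongest of each flank, the widest and narrowest of each stretch, the closest pairs, and the strongest peaks missing from a list; others were named after their values were seen. Functions were tested on simulated lists. Alternatives covered single replicate lists, domain bounds, either flank, stronger peaks, narrow peaks, merging, overlap rules and the fullest bin. The work used scipy 1.17.1 and numpy 2.4.6 on Python 3.11.15, with pandas 2.3.3 for tables and matplotlib 3.10.9 for figures.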

Additional observations from a re-analysis of the deposited data

How the results depend on the processing

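The density ratio stayed between 2.79 and 6.91 and past its threshold in all 11 alternatives run. The difference in median strength ran from −0.938 to 0.769 in the lists of single replicates, was 0.687 when replicate 2 was cut to as many peaks as replicate 1, and passed in none of these 3; it passed in the other 8. The gap ratio lost its call in the list of replicate 1 (0.296 to 0.482 for the replicates) and in the shortened replicate 2 (0.423). The median width difference, never called, was −59.5 to 0 bp for the replicates and turned negative against the right flank only (−0.5 bp), in the stronger 50% of the combined list (−7.5 bp) and in the shortened replicate 2 (−60 bp). Recovery in replicate 2 lost its call against the left flank only (8.91 points), with the domain narrowed by 0.25 Mb at each end (9.45), in the stronger 50% (0.029) and within terciles of strength (5.15). Recovery in replicate 1, not called in any setting, turned to −3.65 points within terciles. The excess of narrow peaks was 0 to 15.6 points for the replicates, 2.38 in the stronger 50% and 0 in the shortened replicate 2, and was called in none of these but the full list of replicate 2; no peak of replicate 1 here is that narrow. Shortening replicate 2 and all settings for narrow peaks were chosen after seeing the data. The cause of the lost calls was not tested. No paired analysis was possible because no values of the input samples that share the replicate numbers were used. The unknown depth limits what can be said of regions missing from replicate 1.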
